A study of Homo sapiens with 18 samples.

Results

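The 10 human Toll-like receptor (TLR) genes, TLR1 to TLR10, were examined in THP-1 cells, an established human monocytic leukaemia line. They were taken by their GENCODE 29 symbols from the 57500 genes counted. RNA-seq counts came from 18 libraries, 3 in each of 6 groups. A non-targeting control line (shNT), a line with a short hairpin RNA against the orphan nuclear receptor NR4A2 (shNR4A2) and a line with one against the related receptor NR4A3 (shNR4A3) were each sequenced without and with LPS. All 3 lines carried stably integrated hairpins kept under puromycin selection, and all cells spent 2 h in buffered DMEM before LPS was added at 2.5 µg/ml for another 2 h or left out (unstimulated). Each hairpin stands for 1 line here, so that any other difference between the lines and the knockdown itself cannot be told apart. The labels number the replicates 1 to 3 in each group, and the libraries held between 16171161 and 23929138 counted reads, with a median of 19639071.

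TLRs are membrane receptors whose leucine-rich repeats bind microbial products and whose intracellular TIR domain recruits adaptor proteins. TLR2 pairs with TLR1 or TLR6 at the cell surface to recognise bacterial lipopeptides, TLR4 recognises LPS together with MD-2 and CD14, and TLR5 recognises bacterial flagellin. TLR3, TLR7, TLR8 and TLR9 sense nucleic acids from endosomes, double-stranded RNA for TLR3, single-stranded RNA for TLR7 and TLR8 and unmethylated CpG DNA for TLR9. TLR10 belongs to the TLR1 and TLR6 subfamily. MyD88 serves all of these receptors except TLR3, and TRIF, encoded by TICAM1, serves TLR3 and TLR4.

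The targeted genes were checked first, in TPM, the deposited counts divided by gene length and scaled to a sum of 1000000 per library. In unstimulated cells NR4A2 was at 4.16, 2.83 and 4.08 TPM in shNT replicates 1, 2 and 3 and at 1.82, 1.63 and 2.41 TPM in shNR4A2 cells. With LPS it was at 62.2, 74.7 and 51.3 TPM in shNT cells and at 20.5, 28.3 and 14.8 TPM in shNR4A2 cells. NR4A2 was therefore lower in every shNR4A2 library than in every shNT library of the same state, by 0.91 ± 0.23 (SE) on the log2 scale without LPS (edgeR quasi-likelihood test, adjusted p = 0.0359) and by 1.52 ± 0.19 with LPS (adjusted p = 0.00265). NR4A3 was at 0.556, 0.693 and 0.512 TPM in unstimulated shNT cells and at 0.158, 0.107 and 0.0315 TPM in unstimulated shNR4A3 cells. With LPS it was at 30.9, 32.3 and 31.9 TPM in shNT cells and at 17.0, 18.2 and 16.7 TPM in shNR4A3 cells. NR4A3 was lower in every shNR4A3 library, by 2.47 ± 0.49 on the log2 scale without LPS (adjusted p = 0.00767) and by 0.82 ± 0.08 with LPS (adjusted p = 0.000556). The knockdowns were thus partial, and in each knockdown line the targeted gene was still at 14.8 TPM or more after LPS.

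On GRCh38, TLR10 (chr4:38772239-38782990), TLR1 (chr4:38790677-38856817) and TLR6 (chr4:38823715-38856817) lie next to each other on the minus strand. TLR2 (chr4:153701500-153705699) and TLR3 (chr4:186069152-186088069) lie on the plus strand of the same chromosome. TLR7 (chrX:12867083-12890380) and TLR8 (chrX:12906620-12923169) are plus-strand neighbours. TLR4 (chr9:117704332-117716871, plus strand), TLR5 (chr1:223109406-223143282, minus strand) and TLR9 (chr3:52221080-52226163, minus strand) lie on other chromosomes. TLR9 shares 86.3% of its exon bases (3341 bases) with AC097637.1, an annotated gene on the same strand, so that reads from most of TLR9 could not be given to 1 gene. AC097637.1 itself had from 0 to 6 reads per library. TLR2 was counted over 1 exon of 4200 bases that begins downstream of the start RefSeq gives it.

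TLR1 and TLR6 share the first exon of the counted annotation, 57 bases at chr4:38856761-38856817. They also share 1 identical stretch of 218 bases inside their coding sequences, at positions 1653 to 1870 of the TLR1 transcript and 1515 to 1732 of the TLR6 transcript. The stretch is shown because no other pair of TLR transcripts shared a run as long as the 150-base reads. Read pairs with both mates within it cannot be told apart between both genes. Of the 150-base windows of each transcript, 69 of 2700 for TLR1 and 69 of 5731 for TLR6 fell inside it. These windows cover 1 transcript of each gene, 2849 bases for TLR1, and not all of the counted exons, and they take each read without its mate.
TLR1 and TLR6, coding strand: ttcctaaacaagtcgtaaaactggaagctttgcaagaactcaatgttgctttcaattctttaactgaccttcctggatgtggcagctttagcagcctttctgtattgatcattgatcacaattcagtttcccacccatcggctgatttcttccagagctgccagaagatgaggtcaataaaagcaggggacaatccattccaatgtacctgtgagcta

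**Figure D1:**
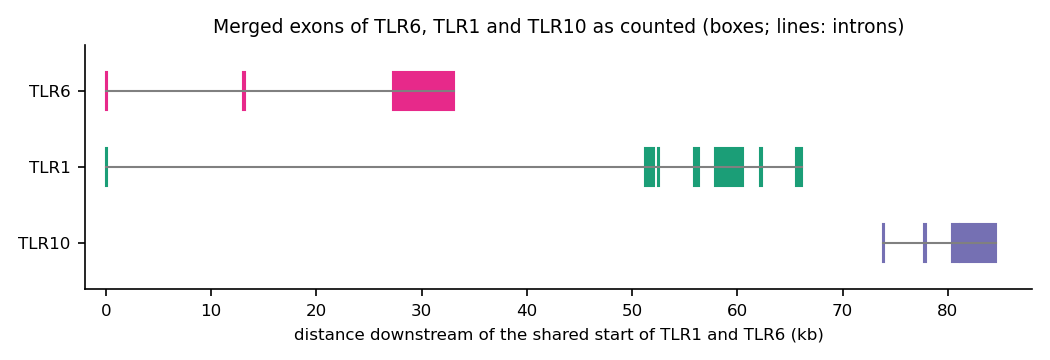
Merged exons of TLR6, TLR1 and TLR10 as counted, drawn against the distance in kb downstream of the start that TLR1 and TLR6 share; boxes are exons (the shortest are widened so that they can be seen) and lines are introns. TLR1 and TLR6 begin at the same 57-base exon, and the body of TLR6 lies between that exon and the body of TLR1.

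Promoter sequences from RefSeq (GRCh38.p14) were held for 7 of the 10 genes, TLR2, TLR3, TLR4, TLR5, TLR6, TLR8 and TLR9, and 3 are shown for the receptors that the results below turn on. Each runs 5′ to 3′ on the strand of its gene. In the 250 bases before the TLR2 start (chr4:153684030-153684279, plus strand), capitals mark matches to the NF-kappaB motif (GGG and CC with any 5 bases between them) read on either strand. There were 6 matches, some overlapping, in 4 runs of capitals, and 54.4% of the 35116 promoters in the same table held at least 1. The TLR5 window, not shown, held 5 matches.
TLR2: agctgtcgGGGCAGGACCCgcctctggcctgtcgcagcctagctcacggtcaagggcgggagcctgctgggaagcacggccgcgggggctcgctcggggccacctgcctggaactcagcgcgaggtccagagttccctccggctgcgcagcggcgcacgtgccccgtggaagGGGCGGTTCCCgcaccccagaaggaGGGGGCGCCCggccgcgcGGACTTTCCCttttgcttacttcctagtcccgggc
The TLR4 stretch below is the 179 bases directly before its counted exons (chr9:117704153-117704331, plus strand). The TLR6 stretch is the 250 bases before the exon that TLR6 and TLR1 share (chr4:38856818-38857067, minus strand). In both, capitals mark GAGGAA, a form of the motif of ETS factors such as PU.1, on either strand, and other forms were not searched. It was present 3 times before TLR4, once before TLR6 and 2 times in the window of TLR9, not shown, and in 23.6% of all promoter windows of 250 bases.
TLR4: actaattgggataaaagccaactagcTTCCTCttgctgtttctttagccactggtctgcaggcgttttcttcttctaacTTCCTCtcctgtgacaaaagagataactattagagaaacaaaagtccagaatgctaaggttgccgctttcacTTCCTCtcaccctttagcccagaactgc
TLR6: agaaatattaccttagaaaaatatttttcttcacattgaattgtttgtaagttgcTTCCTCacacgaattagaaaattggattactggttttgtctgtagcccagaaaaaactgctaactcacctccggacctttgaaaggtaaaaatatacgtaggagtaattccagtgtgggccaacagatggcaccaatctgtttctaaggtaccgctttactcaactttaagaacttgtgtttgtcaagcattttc
AAAGGTCA, the NBRE motif that NR4A receptors bind as monomers, was found in 1.045% of all promoters and in none of the 7 TLR windows. An interferon-response motif (GAAA, any 2 bases and GAAA) was in 3.02% of all promoters and in none of the 7 either, and the AP-1 motif TGANTCA was in 6.57% and in the window of TLR9 alone. These are matches of letters in a short window only.

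In unstimulated shNT cells TLR2 was the most abundant TLR, at 75.2 ± 7.13 TPM (SD, n = 3), followed by TLR4 at 18.4 ± 2.77 TPM. TLR6 and TLR1 came next at 9.83 ± 2.14 and 9.54 ± 3.38 TPM, and their libraries overlapped. The remaining 6 receptors were below 1 TPM in this group. TLR8 stood at 0.708 ± 0.239 TPM, TLR5 at 0.345 ± 0.242 TPM, TLR9 at 0.340 ± 0.0698 TPM, TLR7 at 0.272 ± 0.147 TPM, TLR10 at 0.183 ± 0.0519 TPM and TLR3 at 0.103 ± 0.0581 TPM, and each of these overlapped with its neighbour in the order. The TPM of TLR9 was divided by all 3870 of its exon bases, most of them shared with AC097637.1. Its level and its place in the order may therefore be too low. TLR2 was first in all 18 libraries and apart from the next receptor in all 6 groups. TLR4 took the second place in the mean of every group, overlapping with TLR1 in unstimulated shNR4A2 cells and with TLR7 in shNR4A2 and shNR4A3 cells given LPS. TLR7 moved from the eighth place in unstimulated shNT cells, and the sixth in both unstimulated knockdown lines, to the third with LPS in each line.

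**Figure D2:**
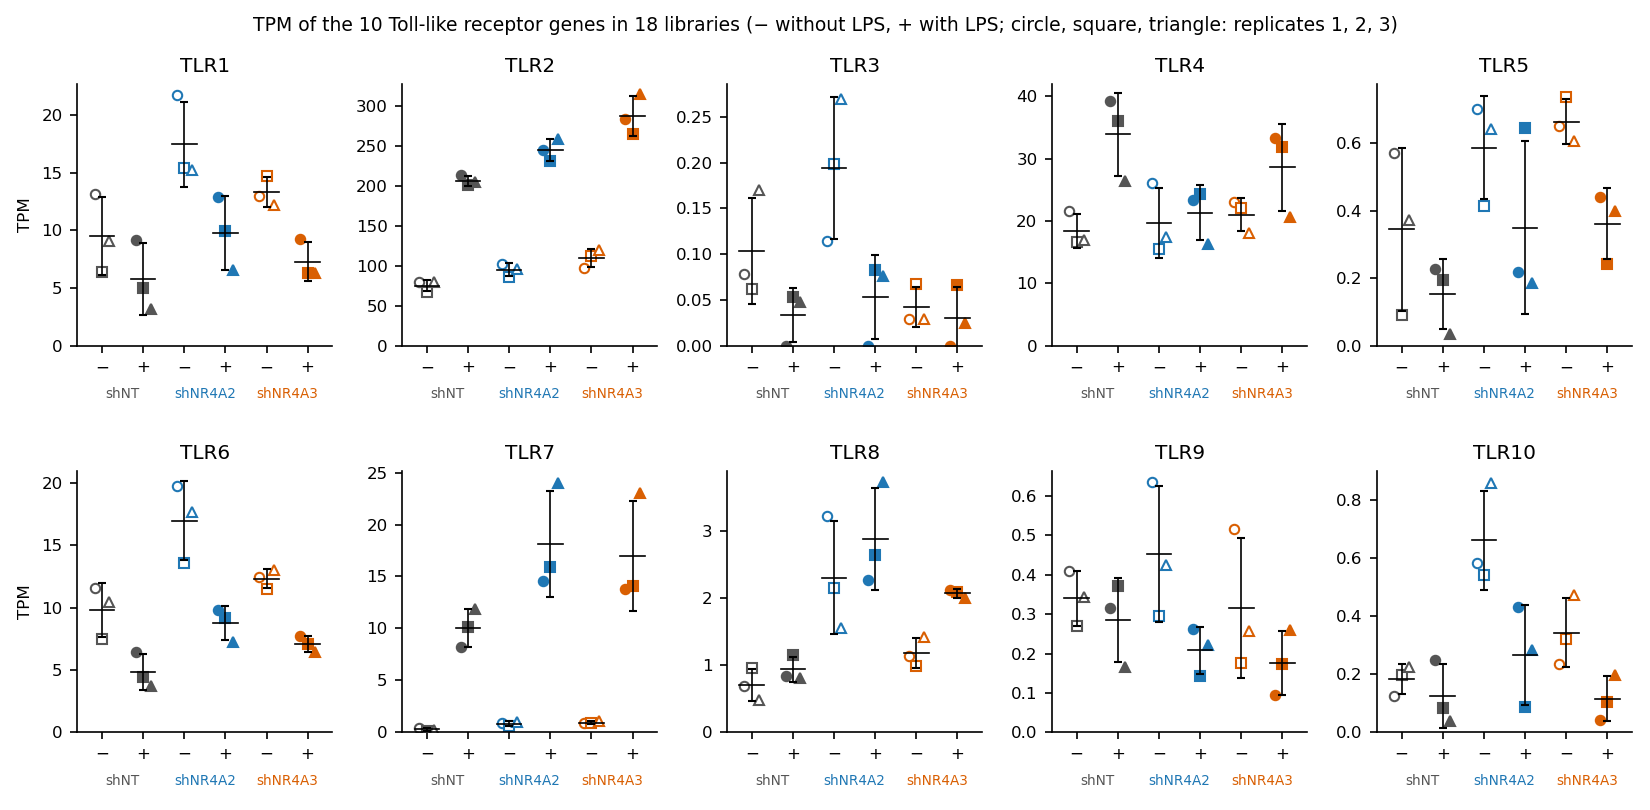
TPM of each of the 10 TLR genes (y axis, 1 panel per gene, each with its own scale from 0) in the 18 libraries, by line and without (−, open) or with (+, filled) LPS; circles, squares and triangles are replicates 1, 2 and 3, the black line is the mean and the bar the SD. TLR2 and TLR7 are higher with LPS in every line, and TLR3, TLR5, TLR9 and TLR10 stay below 1 TPM in every library. The TPM of TLR9 may be too low, since most of its exon bases are shared with AC097637.1.

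The summed level of the 10 receptors was 115 ± 14.6 TPM in unstimulated shNT cells and 262 ± 14.0 TPM with LPS. It went from 154 ± 21.0 to 306 ± 11.5 TPM in shNR4A2 cells and from 160 ± 9.40 to 350 ± 23.2 TPM in shNR4A3 cells. TLR2 made up most of each sum, with a mean share of 65.6% in unstimulated shNT cells and 78.7% with LPS. In bulk RNA, fewer cells that express a gene and less RNA per cell cannot be told apart.

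The first question was how 2 h of LPS changed the receptors in each line. In shNT cells 6 of the 10 passed the filter on low counts (TLR1, TLR2, TLR4, TLR6, TLR7 and TLR8), and 3 were called higher and 1 lower, while 11.6% of all genes tested were called higher and 13.3% lower. TLR7, with 13, 4 and 6 reads in the unstimulated and 245, 293 and 383 in the LPS libraries, passed it only through the latter, so that its value in shNT cells is a description and 2 of the other 5 (TLR2 and TLR4) were called higher. In shNR4A2 cells 8 passed, and 2 were called higher and 1 lower against 9.23% and 10.1% of all genes. In shNR4A3 cells 7 passed, and 4 were called higher and 2 lower against 13.1% and 15.0%. TLR2 rose and TLR6 fell in each line, TLR7 was higher in each, and the calls for TLR1, TLR4 and TLR8 were not the same in all 3. TPM carried a shift of the whole sample with LPS, since the median gene's TPM ratio was −0.23, −0.28 and −0.24 on the log2 scale in shNT, shNR4A2 and shNR4A3 cells. The fold changes below are TMM-scaled, with a median over all genes between −0.02 and −0.01. For 48.5%, 46.0% and 51.6% of all genes in the same 3 lines, the TPM of the unstimulated and LPS libraries did not overlap. The fit that blocked on the replicate number, given where it changes a call, called 32.0%, 30.1% and 39.4% of all genes in these lines.

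TLR2, the shared partner in lipopeptide recognition, was at 79.3, 66.9 and 79.2 TPM in unstimulated shNT cells and at 213, 200 and 205 TPM with LPS. In shNR4A2 cells it went from 103, 86.1 and 96.2 TPM to 245, 231 and 258 TPM, and in shNR4A3 cells from 96.9, 112 and 120 TPM to 283, 265 and 314 TPM. Every LPS library lay above every unstimulated library of any line. TLR2 rose by 1.68 ± 0.09 (SE) on the log2 scale in shNT cells (adjusted p = 3.77e-09), by 1.64 ± 0.13 in shNR4A2 cells (adjusted p = 1.41e-06) and by 1.63 ± 0.11 in shNR4A3 cells (adjusted p = 1.20e-06). With 3 libraries against 3, an exact two-sided permutation test of TPM cannot go below p = 0.1, which is the value TLR2 had in each line.

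TLR1 and TLR6, the partners of TLR2, were lower with LPS in their means in every line. TLR6 was at 11.6, 7.45 and 10.4 TPM in unstimulated shNT cells and at 6.44, 4.45 and 3.68 TPM with LPS. It went from 19.7, 13.6 and 17.7 TPM to 9.84, 9.21 and 7.25 TPM in shNR4A2 cells and from 12.5, 11.5 and 13.0 TPM to 7.72, 7.09 and 6.46 TPM in shNR4A3 cells. Within each line the unstimulated and LPS libraries of TLR6 did not overlap. TLR6 fell by 0.80 ± 0.20 on the log2 scale in shNT cells (adjusted p = 0.00857), by 0.69 ± 0.17 in shNR4A2 cells (adjusted p = 0.0137) and by 0.57 ± 0.13 in shNR4A3 cells (adjusted p = 0.00770). The call in shNR4A2 cells was lost without LPS replicate 3 or without control replicate 1 (adjusted p between 0.0519 and 0.0636). TLR1 was at 13.1, 6.43 and 9.06 TPM in unstimulated shNT cells and at 9.18, 5.01 and 3.16 TPM with LPS, and these ranges overlapped. In shNR4A2 cells TLR1 went from 21.7, 15.4 and 15.2 TPM to 12.9, 9.97 and 6.52 TPM, and in shNR4A3 cells from 13.0, 14.7 and 12.2 TPM to 9.25, 6.29 and 6.31 TPM, with no overlap in either line. Its log2 change passed the test in shNR4A3 cells (−0.63 ± 0.18, adjusted p = 0.0230) and not in shNT cells (−0.51 ± 0.31, adjusted p = 0.264) or shNR4A2 cells (−0.57 ± 0.23, adjusted p = 0.113). With the replicate number as a block the change in shNR4A2 cells was called (adjusted p = 0.00583). The shNR4A3 call of TLR1 was lost when LPS replicate 2 or 3 or control replicate 1 or 2 was left out (adjusted p between 0.0517 and 0.106) and in the fit of all 18 libraries (adjusted p = 0.149). A call was gained in shNT cells without LPS replicate 1 (adjusted p = 0.00876) and in shNR4A2 cells without LPS replicate 1 (adjusted p = 0.0215), and in both without the filter on low counts (adjusted p = 0.0153 and 0.0081).

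TLR4, the receptor for LPS itself, was at 21.6, 16.6 and 17.0 TPM in unstimulated shNT cells and at 39.2, 36.1 and 26.3 TPM with LPS, with no overlap. In shNR4A2 cells it was at 26.1, 15.5 and 17.4 TPM without and 23.4, 24.3 and 16.3 TPM with LPS, which overlapped. In shNR4A3 cells it was at 23.0, 22.0 and 18.03 TPM without and 33.2, 31.9 and 20.6 TPM with LPS, where replicate 3 of the LPS group fell inside the unstimulated range. Replicate 3 was the lowest LPS library in all 3 lines. TLR4 rose by 1.09 ± 0.14 on the log2 scale in shNT cells (adjusted p = 6.69e-05) and by 0.67 ± 0.17 in shNR4A3 cells (adjusted p = 0.0138), and its log2 change in shNR4A2 cells was 0.38 ± 0.20 (adjusted p = 0.228). The shNR4A3 call was lost without LPS replicate 1 or control replicate 3 (adjusted p between 0.0563 and 0.0668). The shNR4A2 value passed the test with the replicate block (adjusted p = 0.0457) and without control replicate 1 (adjusted p = 0.0341).

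The difference between lines in the response to LPS was tested as an interaction of line and LPS over 12 libraries each. No TLR passed in edgeR or DESeq2, and 0% of all genes passed in either interaction in edgeR. At an unadjusted p under 0.05 there were 365 genes for shNR4A2 and 824 for shNR4A3, and DESeq2 called 2 and 10 genes. Of the receptors, TLR4 alone was under that limit, and for shNR4A2 alone. Its interaction was −0.71 ± 0.28 on the log2 scale for shNR4A2 (adjusted p = 1.00) and −0.43 ± 0.25 for shNR4A3. For TLR7 the interactions were −0.67 ± 0.48 and −0.97 ± 0.49. For TLR2 they were −0.03 ± 0.14 and −0.05 ± 0.14.

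TLR7 and TLR8, the endosomal sensors of single-stranded RNA, differed in size of response. TLR7 was at 0.438, 0.160 and 0.219 TPM in unstimulated shNT cells and at 8.20, 10.1 and 11.8 TPM with LPS. It went from 0.916, 0.586 and 1.01 TPM to 14.5, 15.9 and 23.96 TPM in shNR4A2 cells and from 0.880, 0.869 and 1.07 TPM to 13.8, 14.1 and 23.0 TPM in shNR4A3 cells. Replicate 3 was the highest LPS library in each line, and no LPS library came near the unstimulated range. TLR7 was higher with LPS by 5.37 ± 0.28 on the log2 scale in shNT cells, given as a description, and rose by 4.69 ± 0.27 in shNR4A2 cells (adjusted p = 7.60e-08) and by 4.40 ± 0.26 in shNR4A3 cells (adjusted p = 4.19e-07). TLR8 was at 0.686, 0.957 and 0.481 TPM in unstimulated shNT cells and at 0.841, 1.16 and 0.813 TPM with LPS. In shNR4A2 cells it was at 3.22, 2.15 and 1.55 TPM without and 2.27, 2.64 and 3.73 TPM with LPS. In both of these lines the states overlapped. In shNR4A3 cells TLR8 was at 1.14, 0.987 and 1.42 TPM without and at 2.12, 2.10 and 2.00 TPM with LPS, without overlap. It rose in shNR4A3 cells by 1.03 ± 0.25 on the log2 scale (adjusted p = 0.0104), and its log2 change was 0.62 ± 0.35 in shNT cells (adjusted p = 0.223) and 0.59 in shNR4A2 cells (adjusted p = 0.208).

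**Figure D3:**
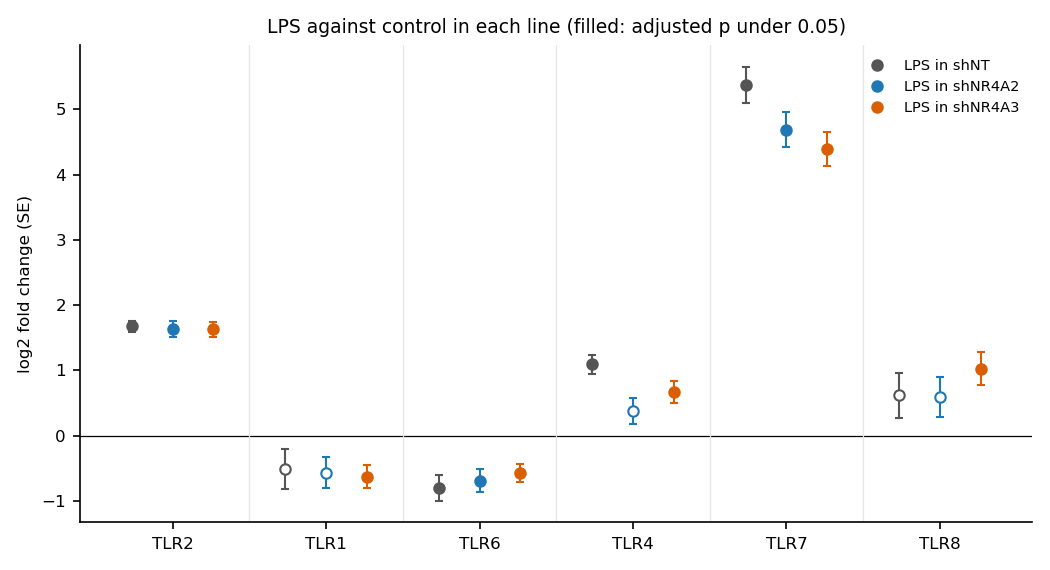
TMM-scaled log2 fold change of LPS against unstimulated cells (y axis; bars are the SE of the fit, 3 libraries against 3) for the 6 TLRs tested in all 3 lines, coloured by line; filled points had an adjusted p under 0.05 in edgeR. TLR7 lies between 4.40 and 5.37 and TLR2 between 1.63 and 1.68, while TLR1 and TLR6 lie below 0 in every line. The value of TLR7 in shNT cells is a description.

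The other 4 receptors were barely counted. TLR5 had from 1 to 21 reads per library (0.0349 to 0.736 TPM), TLR10 from 1 to 22 (0.0381 to 0.858 TPM) and TLR9 from 2 to 16 (0.0955 to 0.636 TPM). Since most TLR9 exon bases are shared with AC097637.1, the reads and TPM of TLR9 may be too low. TLR3 had from 0 to 11 reads (at most 0.269 TPM). No read of TLR3 was counted in replicate 1 of the 3 LPS groups, which allows up to 0.0777, 0.0902 and 0.0824 TPM in shNT, shNR4A2 and shNR4A3 cells by a limit of 3 counts, for counting error only. TLR3 and TLR9 never passed the filter on low counts. TLR5 and TLR10 passed it only in some comparisons, and no LPS change of either was called; the log2 change of TLR10 in shNR4A2 cells was −1.04 (adjusted p = 0.178). In TPM, which carry the shift given above, the LPS libraries lay wholly below the unstimulated ones for TLR3 in shNT and shNR4A2 cells, TLR9 in shNR4A2 cells, TLR10 in shNR4A2 and shNR4A3 cells and TLR5 in shNR4A3 cells (exact two-sided permutation p = 0.1 for each, the smallest this design allows).

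The next question was whether the receptors differed between each knockdown line and shNT cells in the same state. The shNT libraries are shared by both knockdown comparisons, and the unstimulated shNT libraries also by the LPS comparison above. Without LPS, 8 receptors passed the filter in shNR4A2 against shNT, and 5 were called higher (TLR1, TLR6, TLR7, TLR8 and TLR10) and 0 lower, against 3.63% of all genes higher and 2.82% lower. TLR5, TLR7 and TLR10 passed the filter only through their knockdown libraries, TLR7 having 13, 4 and 6 reads in the unstimulated shNT libraries against 31, 16 and 32 in shNR4A2 and 23, 20 and 28 in shNR4A3 cells, so that the counts without LPS are given as a description. Of the other 5 receptors, 3 were called higher in shNR4A2 (TLR1, TLR6 and TLR8) and 1 in shNR4A3 cells (TLR2) without LPS. With LPS, 6 passed and 3 were called higher (TLR6, TLR7 and TLR8), against 4.31% of all genes. For shNR4A3 against shNT, 2 of 7 were called higher without LPS (TLR2 and TLR7), against 3.91% of all genes, and 2 of 6 with LPS (TLR2 and TLR8), against 3.99%. No receptor was called lower in these fits, where 2.65% of all genes were lower in shNR4A2 cells with LPS and 3.32% and 2.46% in shNR4A3 cells without and with LPS. The TPM of both groups did not overlap for 25.7% and 27.2% of all genes in shNR4A2 and for 24.3% and 27.9% in shNR4A3 against shNT cells, without and with LPS. With the replicate block, 23.6% and 28.1% of all genes were called in shNR4A2 and 14.8% and 21.8% in shNR4A3 cells.

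TLR8 was higher in every shNR4A2 library than in every shNT library of the same state, by 1.71 ± 0.36 on the log2 scale without LPS (adjusted p = 0.0156) and by 1.68 ± 0.28 with LPS (adjusted p = 0.00862). The latter call held when any 1 of the 6 libraries was left out, and the former was lost without shNR4A2 control replicate 1 or shNT control replicate 3 (adjusted p between 0.0608 and 0.0663). In shNR4A3 cells the TLR8 difference was 0.80 on the log2 scale without LPS (adjusted p = 0.202) and 1.21 ± 0.24 with LPS (adjusted p = 0.0163), where the call was lost without replicate 1 or 3 of either LPS group (adjusted p between 0.0560 and 0.0670).

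TLR7 was higher in each unstimulated knockdown library than in each unstimulated shNT library, by 1.59 ± 0.41 in shNR4A2 cells and by 1.79 ± 0.39 in shNR4A3 cells on the log2 scale. Both values rest on shNT levels below 0.5 TPM, and since TLR7 was tested there only through the knockdown libraries they are given as a description. The shNR4A2 call was lost without control replicate 1 or 3 of shNR4A2 or 2 or 3 of shNT (adjusted p between 0.111 and 0.163) and in DESeq2 (adjusted p = 0.0665), and the shNR4A3 call without control replicate 3 of shNR4A3 or 2 or 3 of shNT (adjusted p between 0.0631 and 0.0702). With LPS the TLR7 difference was 0.91 ± 0.21 in shNR4A2 cells (adjusted p = 0.0354), lost without LPS replicate 1 or 3 of shNR4A2 or 1 or 2 of shNT (adjusted p between 0.0531 and 0.124). In shNR4A3 cells it was 0.82 ± 0.22 (adjusted p = 0.0553), and it was called with the replicate block (adjusted p = 0.000104), by DESeq2 (adjusted p = 0.00526), in the fit of all 18 libraries (adjusted p = 0.0315), without the filter on low counts (adjusted p = 2.73e-07) and without LPS replicate 2 of shNR4A3 (adjusted p = 0.0131).

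TLR6 and TLR1 were higher in shNR4A2 cells. Without LPS, TLR6 rose by 0.79 ± 0.17 on the log2 scale relative to shNT (adjusted p = 0.0174) and TLR1 by 0.87 ± 0.23 (adjusted p = 0.0422), and no library of either gene overlapped. Each call was lost without control replicate 1 of shNR4A2 or without control replicate 2 or 3 of shNT (adjusted p between 0.0560 and 0.0631 for TLR6, and between 0.118 and 0.137 for TLR1). The TLR1 call was also lost when all 18 libraries shared 1 fit (adjusted p = 0.0931). With LPS, TLR6 was higher by 0.91 ± 0.21 (adjusted p = 0.0336), a call lost without LPS replicate 1 of shNR4A2 or LPS replicate 2 or 3 of shNT (adjusted p between 0.109 and 0.135). TLR1 differed by 0.82 ± 0.36 with LPS (adjusted p = 0.211), and was called with the replicate block (adjusted p = 6.21e-07) and without the filter on low counts (adjusted p = 0.000233). In shNR4A3 cells the TLR6 difference was 0.38 without LPS (adjusted p = 0.154) and 0.61 ± 0.20 with LPS (adjusted p = 0.101). The latter was called with the block (adjusted p = 0.00263), without the filter on low counts (adjusted p = 0.00837) and without LPS replicate 1 of shNT (adjusted p = 0.0237). The TLR1 difference in shNR4A3 cells was 0.52 without LPS (adjusted p = 0.140; 0.00928 without control replicate 1 of shNT and 0.0197 without the filter on low counts) and 0.41 with LPS (adjusted p = 0.512).

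TLR2 was higher in shNR4A3 cells, by 0.59 ± 0.09 on the log2 scale without LPS (adjusted p = 0.00187) and by 0.54 ± 0.10 with LPS (adjusted p = 0.0109), with no overlap of libraries in either state. The call with LPS was lost without LPS replicate 3 of shNR4A3 or LPS replicate 2 of shNT (adjusted p between 0.0544 and 0.0635). In shNR4A2 cells TLR2 differed by 0.34 ± 0.10 without LPS (adjusted p = 0.0698) and by 0.31 ± 0.10 with LPS (adjusted p = 0.102). Both passed the test with the replicate block (adjusted p = 0.00154 without and 0.000509 with LPS), the former also in DESeq2 (adjusted p = 0.0384), and each also passed without replicate 2 of the shNR4A2 group of that state (adjusted p = 0.0350 and 0.0277).

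Among the 6 receptors tested in both states, TLR4 was the 1 whose difference from shNT did not keep its sign with LPS. Relative to shNT, its log2 difference in unstimulated shNR4A2 cells was 0.10 (adjusted p = 0.817), and −0.17 without control replicate 1 of shNR4A2. With LPS the difference in shNR4A2 cells was −0.61 ± 0.17 (adjusted p = 0.0647). The value with LPS was called with the replicate block (adjusted p = 1.55e-08), by DESeq2 (adjusted p = 0.0134) and without the filter on low counts (adjusted p = 6.94e-05). All 3 shNR4A2 libraries with LPS lay below all 3 shNT libraries with LPS. In shNR4A3 cells the TLR4 difference was 0.24 without LPS (adjusted p = 0.344) and −0.18 with LPS (adjusted p = 0.600; 0.002 without LPS replicate 3 of shNR4A3), and the libraries overlapped in both states.

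TLR10 had 3, 4 and 5 reads in unstimulated shNT libraries and 16, 12 and 22 in unstimulated shNR4A2 libraries, or 0.183 ± 0.0519 and 0.662 ± 0.172 TPM. Since it was tested only through its shNR4A2 libraries, its log2 difference of 1.85 ± 0.44 is given as a description, and DESeq2 did not call it (adjusted p = 0.0919). TLR5 differed from shNT by 0.74 in unstimulated shNR4A2 cells (adjusted p = 0.431) and by 0.94 in unstimulated shNR4A3 cells (adjusted p = 0.270), with from 2 to 15 reads in shNT, 10 to 21 in shNR4A2 and 14 to 15 in shNR4A3 libraries.

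**Figure D4:**
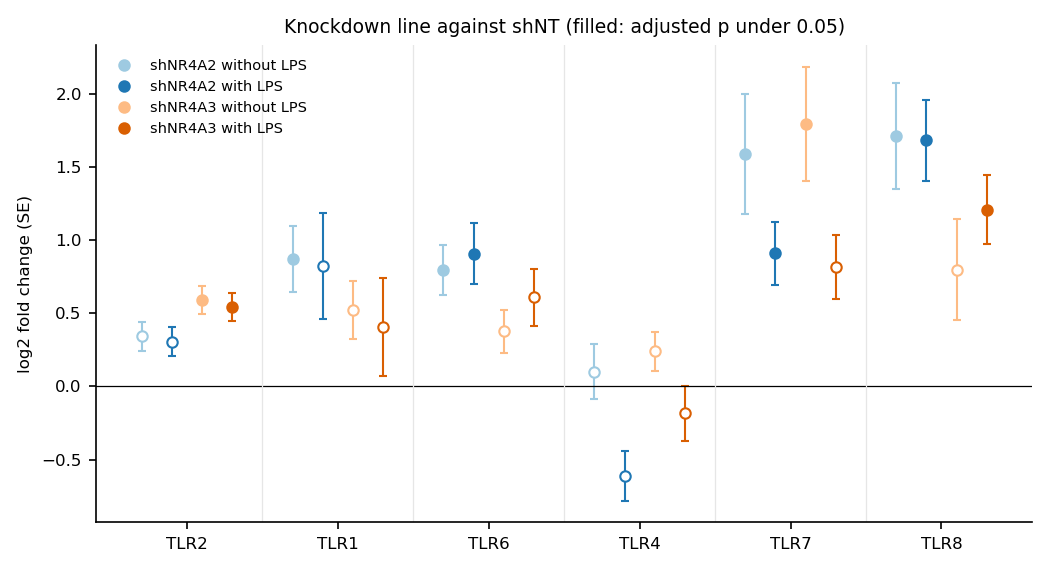
TMM-scaled log2 difference of each knockdown line from shNT cells (y axis; bars are the SE of the fit, 3 libraries against 3) for 6 TLRs, in blue for shNR4A2 and orange for shNR4A3, pale without and dark with LPS; filled points had an adjusted p under 0.05 in edgeR, and TLR7 without LPS is a description. TLR7 and TLR8 hold the largest differences, up to 1.79, and TLR4 with LPS in shNR4A2 cells lies at −0.61, not called.

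Both knockdown lines were then set against each other. No TLR was called between shNR4A2 and shNR4A3 cells in either state, where 3.08% of all genes were called without and 2.33% with LPS. At an unadjusted p under 0.05 in edgeR there were 4 receptors without LPS (TLR1, TLR2, TLR6 and TLR8) and 0 with LPS, beside 2260 of 15584 and 2773 of 15539 genes in all, and DESeq2 called 0 receptors in either state. With the replicate block, where 11.6% and 23.6% of all genes were called, TLR6 was higher in shNR4A2 cells without LPS (0.41, adjusted p = 0.0144). With LPS and the block, TLR1 (0.40, adjusted p = 0.0315) and TLR6 (0.30, adjusted p = 0.0392) were higher and TLR2 (−0.23, adjusted p = 0.00348) and TLR4 (−0.41, adjusted p = 0.00102) lower in shNR4A2 than in shNR4A3 cells. TLR6 was also called without the block when control replicate 2 of shNR4A2 was left out (adjusted p = 0.0452).

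Receptors work with co-receptors, of which CD14 hands LPS to MD-2 (LY96) on TLR4, CD36 assists TLR2 with TLR6, and CD180 with MD-1 (LY86) forms a TLR4-like pair. In shNT cells CD180 had 76, 39 and 61 reads in the unstimulated and 29, 21 and 7 in the LPS libraries. It passed the filter on low counts there only through the former, so that its log2 change of −1.53 ± 0.38 is given as a description. With LPS, CD180 fell by 1.79 on the log2 scale in shNR4A2 and by 2.08 in shNR4A3 cells. No other tested member of the 6-gene co-receptor list was called with LPS in these fits. CD14 had a log2 change of −0.38 in shNT cells (adjusted p = 0.347), and was called lower with the replicate block in shNR4A2 (−0.40, adjusted p = 0.0234) and shNR4A3 cells (−0.36, adjusted p = 0.0329). Without LPS, CD36 (1.29), CD180 (1.22), CD14 (1.15) and LY86 (0.71) were called higher in shNR4A2 than in shNT cells, where 3.63% of all genes were. LY96, with 4, 1 and 7 reads in shNT and 17, 12 and 20 in shNR4A2 libraries, passed the filter on low counts only through the latter, and its log2 difference of 1.83 is given as a description. In shNR4A3 cells the 4 tested were called higher, against 3.91% of all genes, namely CD36 (2.41), CD180 (1.66), LY86 (1.28) and CD14 (0.87). With LPS, LY86 and CD36 were called higher in both lines, against 4.31% of all genes in shNR4A2 and 3.99% in shNR4A3 cells, and CD14 only with the replicate block (adjusted p = 3.11e-11 in shNR4A2 and 0.000193 in shNR4A3 cells). CD36 was lower in shNR4A2 than in shNR4A3 cells, by 1.12 ± 0.24 on the log2 scale without LPS (adjusted p = 0.0229), and was called lower with LPS as well. Between these lines 3.08% of all genes were called without and 2.33% with LPS.

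Chaperones and proteases bring TLRs to their compartments and, for the endosomal receptors, cut them into their active form. None of the 7 listed (HSP90B1, CNPY3, UNC93B1, CTSB, CTSL, CTSS and LGMN) was called with LPS in any line by edgeR or DESeq2, and UNC93B1 in shNR4A3 cells alone had an unadjusted p under 0.05 in edgeR. In the same fits 11.6%, 9.23% and 13.1% of all genes were called higher in shNT, shNR4A2 and shNR4A3 cells, and 13.3%, 10.1% and 15.0% lower. In the knockdown comparisons, where between 3.63% and 4.31% of all genes were called higher, 1 and 3 of the 7 were called in shNR4A2 and 2 and 3 in shNR4A3 cells, without and with LPS. CTSB, which encodes the protease cathepsin B, was called higher in both knockdown lines in both states, by 0.65 and 0.77 on the log2 scale in shNR4A2 and by 0.85 and 0.86 in shNR4A3 cells, without and with LPS. UNC93B1, the escort of the endosomal TLRs, was higher in shNR4A3 cells by 0.58 without and 0.48 with LPS, and in shNR4A2 cells by 0.43 with LPS. In unstimulated shNR4A2 cells UNC93B1 was called with the replicate block (0.42, adjusted p = 0.000426). CNPY3 was called higher in shNR4A2 cells with LPS (0.31). LGMN, counted above among the 3 called in shNR4A3 cells with LPS, had only from 6 to 33 reads per library. Its log2 difference of 1.49 there is therefore given as a description.

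Among the TIR adaptors, of which 4 of 5 were tested (TICAM2 was not), TICAM1 rose with LPS by 2.48 on the log2 scale in shNT, 2.601 in shNR4A2 and 2.72 in shNR4A3 cells. TIRAP, which brings MyD88 to TLR2 and TLR4, fell by 0.93, 0.82 and 1.18 on the log2 scale. MYD88 rose by 0.32 in shNT cells (adjusted p = 0.0223) and by 0.59 in shNR4A3 cells (adjusted p = 0.00358) and was not called in shNR4A2 cells (0.19). None of the 4 was called by edgeR in the knockdown comparisons with shNT, where TICAM1 in 3, TIRAP in 1 and MYD88 in 1 of the 4 comparisons had an unadjusted p under 0.05, and DESeq2 called MYD88 in shNR4A3 cells with LPS. Of all genes, 3358 of 15800 and 3617 of 15590 in shNR4A2 and 3206 of 15322 and 3581 of 15578 in shNR4A3 cells were under that unadjusted limit without and with LPS. With the replicate block, TICAM1 was called higher in shNR4A2 cells in both states and in shNR4A3 cells with LPS, TIRAP lower in unstimulated shNR4A2 cells and MYD88 higher in shNR4A3 cells with LPS.

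Further downstream, 5 of 14 proximal kinases and ligases were called higher with LPS in shNT cells (IRAK2, TRAF3, TAB2, IKBKE and TBK1) and TAB1 was called lower, with a list median of 0.10 beside −0.01 over all genes. Of all genes 11.6% were called higher and 13.3% lower in that comparison, which is the background of the next 3 lists as well. IRAK2 rose by 4.64, TRAF3 by 1.68 and TAB2 by 0.96 on the log2 scale. TAB2, which helps activate the kinase TAK1, was also higher in both knockdown lines with LPS, by 0.67 in shNR4A2 and 0.75 in shNR4A3 cells. Of 8 transcription factors, 6 rose with LPS in shNT cells (REL, NFKB1, NFKB2, RELB, RELA and IRF7) and IRF5 fell, with a list median of 1.80. Of 8 inhibitors, 4 rose (TNFAIP3, NFKBIA, ATF3 and CYLD) and 2 fell (TOLLIP and SOCS1), with a median of 0.77. Of 7 LPS target cytokines, TNF, IL1B, CXCL8, CCL2 and CCL20 were called higher in each line, and IL1A in shNT and shNR4A2 cells. In shNR4A3 cells IL1A had 3, 15 and 11 reads in the unstimulated and 6852, 3214 and 4700 in the LPS libraries. It passed the filter on low counts there only through the latter, so that its rise in shNR4A3 cells is a description. IL6, the other 1, had 0 reads in every unstimulated shNT and shNR4A2 library and 1 read in all in unstimulated shNR4A3 libraries, and was tested only through its LPS libraries, with from 15 to 140 reads. In the knockdown comparisons IRAK2, TAB2, IRF7 and TOLLIP were higher and TRAF3, TNF and CCL2 lower in unstimulated shNR4A3 cells, where 3.91% of all genes were higher and 3.32% lower. IRAK3 was lower in unstimulated shNR4A2 cells, and with LPS IL6 was higher in both lines and IRF7 in shNR4A3 cells.

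**Figure D5:**
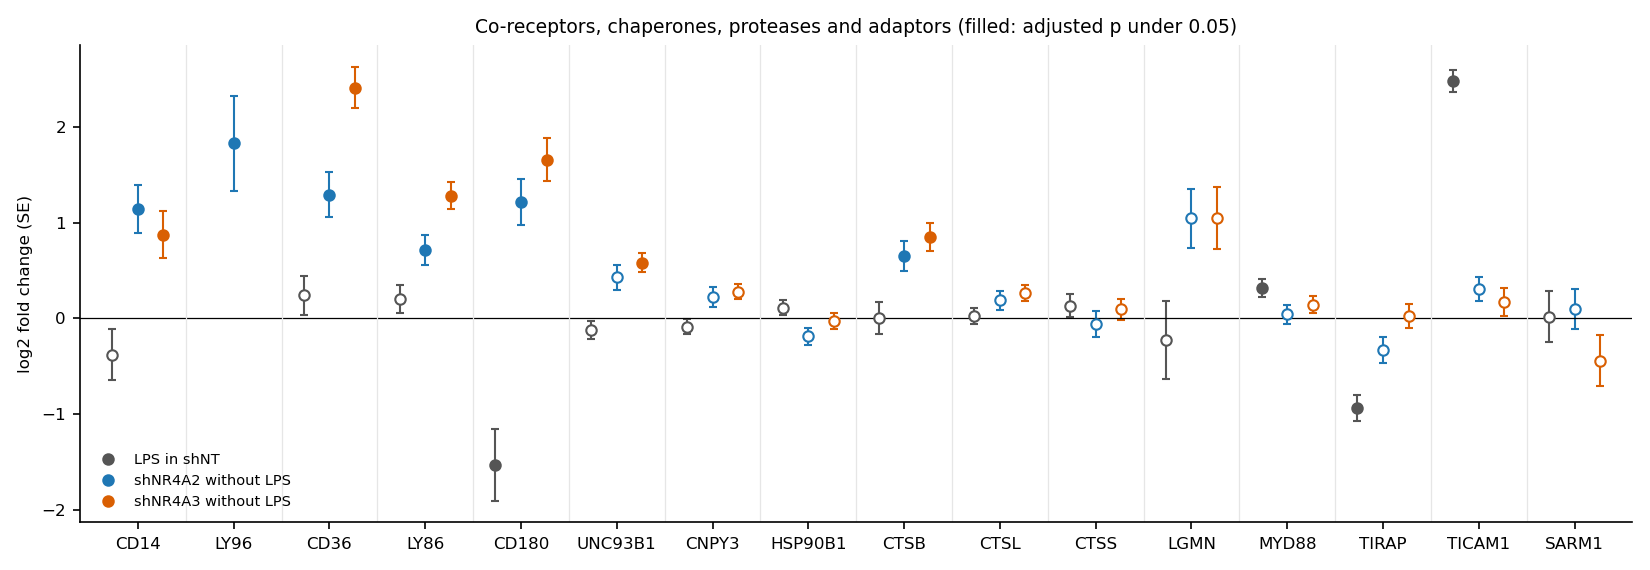
TMM-scaled log2 fold change (y axis; bars are the SE of the fit, 3 libraries against 3) of TLR co-receptors, chaperones, proteases and adaptors, for LPS in shNT cells (grey), unstimulated shNR4A2 against shNT cells (blue) and unstimulated shNR4A3 against shNT cells (orange); filled points had an adjusted p under 0.05 in edgeR, and a gene without a point was not tested. The co-receptors tested lie above 0 in each knockdown line, from 0.71 to 2.41, and TICAM1 at 2.48 and CD180 at −1.53 are the largest LPS changes shown. The LPS change of CD180 is a description. So is the shNR4A2 value of LY96, which was not tested in shNR4A3 cells.

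Across the 18 libraries TLR2 and TLR7 were each other's most alike gene among 16935 genes, with a Pearson r of 0.987 of log2 CPM, and GRAMD2B followed for TLR2 (r = 0.985) and SNX11 for TLR7 (r = 0.985). TLR1 and TLR6 had an r of 0.931 with each other. The genes most alike to TLR1 were SIGLEC6 (r = 0.952) and STX3 (r = 0.944), and to TLR6 they were SIGLEC16 (r = 0.964) and TREML1 (r = 0.938). For TLR4 they were SRSF6 (r = 0.909) and ADPGK (r = 0.907), and for TLR8 TIFAB (r = 0.933) and AC090136.3 (r = 0.919). With the other TLRs compared, TLR4 reached an r of at most 0.71 (TLR2) and TLR8 of at most 0.60 (TLR7). The libraries share lines, LPS and replicate numbers, so that the values are descriptions over 18 libraries in 6 groups.

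The summed level of 10 monocyte markers was 1123 ± 65.7 TPM in unstimulated shNT cells, 1760 ± 127 TPM in shNR4A2 and 2075 ± 254 TPM in shNR4A3 cells, and 1223 ± 114, 1798 ± 156 and 2152 ± 213 TPM with LPS. Of the 10, 3 were called higher in unstimulated shNR4A2 cells (CD14, CSF1R and LYZ) and 5 in shNR4A3 cells (CD14, CSF1R, LYZ, SPI1 and ITGAM), and 2 and 4 with LPS. Of all genes 3.63% and 3.91% were called higher without and 4.31% and 3.99% with LPS in these lines. LYZ, which encodes lysozyme, was at 192 ± 13.6, 615 ± 134 and 883 ± 167 TPM in unstimulated shNT, shNR4A2 and shNR4A3 cells, and made up most of the difference in the sums. SPI1, which encodes PU.1, was the most abundant marker in shNT cells, at 571 ± 36.8 TPM. The part of these markers in the TLR differences was not tested.

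Defining markers of other cell types were at or near 0. The B cell gene MS4A1 was at 0 in 16 of 18 libraries and never above 0.0675 TPM, the NK cell gene KLRD1 at 0 in 14 of 18 and never above 0.0311 TPM, and the plasmacytoid dendritic cell gene CLEC4C at 0 in 15 of 18 and never above 0.337 TPM. CD3E, a T cell gene, was at most 0.350 TPM. The summed levels in unstimulated shNT, shNR4A2 and shNR4A3 cells were 15.0, 14.3 and 10.6 TPM for 5 B cell markers and 54.8, 46.5 and 42.2 TPM for 5 T and NK cell markers, of which NKG7 made up nearly all (54.5 TPM in shNT cells). For 5 plasmacytoid dendritic cell markers they were 74.3, 80.1 and 72.3 TPM, of which IL3RA made up most (70.9 TPM in shNT cells). For 6 epithelial and fibroblast markers they were 2.36, 2.65 and 1.72 TPM. Against shNT, 4 of the 5 B cell, 1 of the 5 T and NK cell and 2 of the 5 plasmacytoid dendritic cell markers were tested. Of the 6 epithelial and fibroblast markers, 3 were tested in unstimulated shNR4A2 cells and 2 in the other knockdown comparisons. None of the tested markers of these 4 lists was called higher in a knockdown line than in shNT cells in either state. PAX5 was lower in shNR4A3 cells and TCF4 in both knockdown lines.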

How the data were processed

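Poly(A) RNA of 18 libraries was sequenced on an Illumina HiSeq as pairs of 150-base reads. The submitters' processing notes name Trimmomatic 0.36, STAR 2.5.2b, featureCounts of Subread 1.5.2 and GRCh38; the strand setting and the handling of reads with several matches were not given in the sources used here. The authors deposited raw counts per gene with merged-exon lengths. TPM were computed from these counts and lengths. No pair of libraries was identical.

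Each comparison was fitted on its own libraries (6, or 12 for an interaction) with edgeR 4.0.16 in R 4.3.3: filterByExpr, TMM scaling, quasi-likelihood F test, Benjamini-Hochberg adjustment over all genes tested, and a call at an adjusted p under 0.05 without a fold limit. SE is the log2 fold change over the square root of F. Log2 CPM used for likeness came from the same TMM scaling. Alternatives were DESeq2 1.42.0, RLE scaling, no filter, a block for the replicate number, a joint fit of the 18 libraries, and each library left out in turn. The fits were tested on simulated data. The study describes the replicates as independent experiments.

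The replicate number was taken as a pairing where all 3 same-numbered pairs correlated above 0.1 in their deviations from the group means. This held in all comparisons of 2 groups except LPS in shNT cells (0.160, 0.00751 and 0.105) and shNR4A3 against shNT without LPS (0.106, 0.0767 and 0.171), and it did not hold for the interactions.

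All 10 TLRs are named. Other pathway genes are named where called with LPS in shNT cells or in both knockdown lines in 1 state, or where they are adaptors, co-receptors or chaperones; further genes outside this rule were chosen after their values were seen. The 2 most alike genes are named for each TLR with a mean of at least 1 TPM. The members, gene lists and tests were chosen with earlier results of these data known.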

Additional observations from a re-analysis of the deposited data

How the results depend on the processing

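RLE scaling changed no call of a TLR. The replicate block moved the number of TLRs called to 5 for LPS in shNR4A2 cells, 6 for shNR4A2 and 4 for shNR4A3 against shNT with LPS, and 1 without and 4 with LPS between both knockdown lines. Where the numbers did not pair the libraries, the block gave calls for TLR1 with LPS in shNT cells (−0.55, adjusted p = 0.0153) and for TLR6 in unstimulated shNR4A3 against shNT cells (0.39, adjusted p = 0.0284). It ended none of the TLR calls given above. Without the filter on low counts, 5 TLRs were called in shNR4A2 and 4 in shNR4A3 against shNT with LPS. Leaving out 1 library gave from 0 to 6 TLRs called in shNR4A2 against shNT without and 1 to 4 with LPS, from 1 to 3 in shNR4A3 against shNT without and 0 to 3 with LPS, and from 0 to 1 between both knockdown lines without LPS.

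Values that changed sign when 1 library was left out were small beside their error, and none was called. In the shNR4A2 interaction the ranges were −0.37 to 0.46 for TLR1, −0.090 to 0.047 for TLR2, −0.22 to 0.92 for TLR5, −0.033 to 0.38 for TLR6, −0.32 to 0.31 for TLR8 and −1.20 to 0.27 for TLR10. In the shNR4A3 interaction they were −0.43 to 0.39 for TLR1, −0.13 to 0.038 for TLR2 and −0.21 to 0.80 for TLR5. TLR4 ranged from −0.17 to 0.23 in shNR4A2 against shNT without LPS and from −0.35 to 0.0020 in shNR4A3 against shNT with LPS. With LPS between both knockdown lines, TLR5 ranged from −0.81 to 0.21 and TLR7 from −0.18 to 0.39.

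Over all genes, the block moved the number called from 3050 to 4751 for LPS in shNR4A2 cells, from 1019 to 3733 and from 1085 to 4385 for shNR4A2 against shNT without and with LPS, from 1108 to 2267 and from 1005 to 3401 for shNR4A3 against shNT, from 480 to 1800 and from 362 to 3666 between both knockdown lines, and from 0 to 8 and 22 for the interactions. Without the filter these numbers were 1611, 1843 and 1839 in place of 1019, 1085 and 1005, 838 and 1102 in place of 480 and 362, and 29 and 138 for the interactions. DESeq2 called 700 in place of 362, and 2 and 10 for the interactions. With all 18 libraries in 1 fit the numbers were 4601, 1691 and 1032 in place of 3050, 1085 and 362. Leaving out 1 library gave from 2113 to 3375 and from 3136 to 4863 for LPS in shNR4A2 and shNR4A3 cells, 517 to 1128 and 342 to 1477 for shNR4A2 and 649 to 975 and 383 to 1693 for shNR4A3 against shNT, 249 to 470 and 94 to 217 between both knockdown lines, and 0 to 8 and 0 to 44 for the interactions, so that the shares of all genes called move likewise. The causes of these moves were not tested. Counts were lowest for TLR3, TLR5, TLR9 and TLR10, none of which had more than 22 reads in a library.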
